A study of Mus musculus with 20 samples.

Results

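The genes described here sense inflammatory signals or carry them onward, and they are the receptors Tlr2, Tlr4, Il1r1, Ifngr1 and Ifnar1, the adaptor Myd88, the transcription factors Nfkb1 and Irf1, and Nos2, an enzyme that such signals induce. They were taken as a list of 9 genes. All deposited bins of 100 bp between 5 kb before the most upstream RefSeq start site (TSS) of a gene and its end were used, which gave 335 of 1201951 bins. DNA methylation had been measured by reduced representation bisulfite sequencing (RRBS), which reads CpG sites in fragments cut at CCGG, in 20 samples of hematopoietic stem cells (HSCs). The samples were 4 from untreated mice (0x) and 6, 4 and 6 from mice that had received 2 (2x), 4 (4x) or 10 (10x) cycles of 5-fluorouracil (5FU), which kills cycling blood cells and drives HSCs to divide. All mice were female C57BL/6J, aged 3 months at the start, with C57BL/6 given as the genotype of every sample. Cycles were 3 weeks apart, and Lin-cKit+Sca1+CD34-Flk2-CD150+ cells were sorted 1 month after the last one. The methods name bone marrow as the source, whereas the labels give the tissue as blood. Neither states that a sample is 1 mouse, so the p-values measure the spread between these samples only, which may be technical.

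Tlr2 and Tlr4 bind microbial molecules at the cell surface, Il1r1 binds interleukin-1, and all of them signal through the adaptor Myd88 to release NF-kB, whose p50 subunit is made from the product of Nfkb1. Ifngr1 and Ifnar1 are chains of the receptors for interferon gamma and the type I interferons, and Irf1 is an early target of both interferon and NF-kB signalling. Nos2 encodes the inducible nitric oxide synthase, best known from activated macrophages. HSCs carry several of these receptors, and inflammatory ligands can push them into cycle. In mammals, promoters rich in CpG are usually free of methylation, and gene bodies are usually methylated.

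The deposited value is the percent methylation of a bin, from 0 to 100, and differences are given in percentage points. Since the files carry no coverage, the depth is unknown and no counting interval can be given. Per the methods, bins missing in a sample had been filled with a level of its group, and the files do not mark which. Values that occur more than once within a group, 0 and 100 aside, were therefore taken as filled, and such bins, called bins with repeated values, are reported apart. They made up 130 of the 335 bins (38.8%), against 36.1% of all bins. In 7 of them all 20 samples held 1 value, so a value taken as filled can be shared by several groups. In a further 183 bins no value was repeated but at least 1 group sat at 0 or 100 in every sample, where it is unknown how many samples had been measured. The remaining 22 bins (6.57%, against 7.00% of all bins) varied in every group without repeats, and the tests use these.

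**Figure D1:**
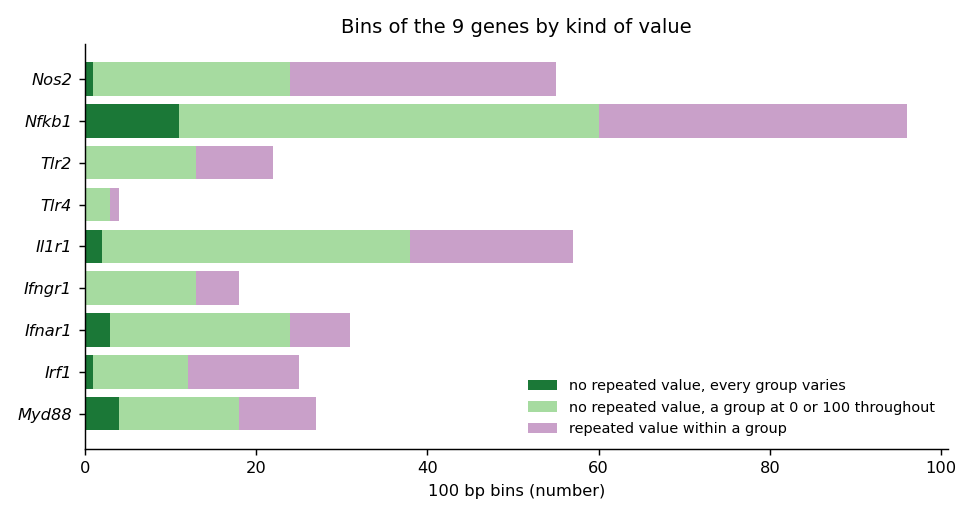
Number of 100 bp bins of each gene (horizontal axis, count), split into bins tested, bins at 0 or 100 throughout a group, and bins with repeated values. Nfkb1 holds 11 of the 22 bins tested, and Tlr2, Tlr4 and Ifngr1 hold none.

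The coverage of the genes was uneven. Nfkb1 had 96 bins and 11 of the 22 tested, Myd88 had 27 and 4, Ifnar1 had 31 and 3, Il1r1 had 57 and 2, and Nos2 had 55 and 1, as did Irf1 with 25 and 1. Tlr2 (22 bins), Ifngr1 (18 bins) and Tlr4 (4 bins) had none among the bins tested. A promoter is taken as the bins within 1 kb of any TSS of the gene, an upstream flank as the other bins before the first TSS, and a gene body as the rest, and these held 81, 23 and 231 bins. No bin lay within 1 kb of the first TSS of Nos2, where the sequence holds 20 CpG and 1 CCGG in 2001 bases, nor of the only TSS of Tlr4, with 27 CpG and 0 CCGG. The 7 promoter bins of Nos2 all belong to later start sites at positions 78924740 and 78925291 of chromosome 11.

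Over the whole series, the mean of the 84131 bins tested lay between 50.3% and 50.9% in the 10x samples, against 48.9% and 50.3% in the 0x samples. The promoters of the blood genes Kit, Slamf1, Procr, Gata2, Spi1, Fli1, Runx1 and Tal1 lay between 0% and 1.85% on average over the 20 samples, in bins without repeated values. Those of Ins2, Myh6, Krt5 and Krt14, genes of other tissues, lay between 78.6% and 100%, and that of the lymphoid gene Cd3e at 100%. A change in the mix of cells and a change within cells cannot be told apart in such samples.

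Most promoter bins of the sensing genes were nearly free of methylation, and most gene body bins were highly methylated, in all groups. Among the 48 promoter bins without repeated values, 40 (83.3%) had a mean under 10% in 10x and 38 (79.2%) in 0x, while over all genes the share was 70.0% in 10x and 69.3% in 0x. Another 7 of the 48 had a mean over 90%, and 6 of these 7 belonged to Il1r1. Among the 145 gene body bins, 128 (88.3%) had a mean over 90% in both 10x and 0x, against 85.6% in 10x and 83.2% in 0x over all genes. The mean over the promoter bins was 17.3% (0x), 15.7% (2x), 17.1% (4x) and 16.7% (10x), and that over the gene body bins was 92.6%, 94.1%, 93.2% and 92.9% in the same order. Of all 335 bins, 133 held 1 value throughout the 20 samples. The 33 promoter bins with repeated values averaged 19.4% (0x), 15.1% (2x), 16% (4x) and 17% (10x), and the 86 gene body bins with repeated values averaged 73.7%, 78.5%, 77% and 75.6%.

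The main question was whether methylation of these genes differed after 5FU. Each treated group was set against 0x with limma on the percent methylation, with p-values adjusted (Benjamini-Hochberg) over all bins, promoters or gene bodies tested. A bin was called at an adjusted p under 0.05 and a difference of at least 10 points, a promoter or gene body at the adjusted p alone. None of the 22 bins was called in 2x, 4x or 10x, where 0.00357% (2x), 0.00713% (4x) and 0.0131% (10x) of all bins were called, and none had a slope over the number of cycles that passed (0.00119% of all bins). At an unadjusted p under 0.05 the count was again 0 of 22, against 3.79%, 3.69% and 6.23% of all bins in 2x, 4x and 10x and 3.56% for the slope. Counts of 0 among so few bins are near these shares. The lowest adjusted p was 0.998 for 2x, 0.975 for 4x, 0.849 for 10x and 0.975 for the slope.

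The 5 promoters and 4 gene bodies with a bin tested gave the same picture. None of the promoters was called, where 0% (2x), 0% (4x) and 0.0199% (10x) of all 15064 promoters tested were called, and none of the gene bodies, where 0.00856%, 0% and 0.0342% of 11679 were. At an unadjusted p under 0.05 the counts were 0 of 5 and 0 of 4 in each comparison, where 3.23%, 3.76% and 6.07% of all promoters and 4.27%, 4.27% and 8.05% of all gene bodies lay in 2x, 4x and 10x. The median difference of the 22 bins was -0.311 (2x), 0.724 (4x) and 0.491 (10x) points, beside 0.179, 0.320 and 0.509 over all bins. The precision was uneven. In 10x against 0x, the 95% interval of 13 of the 22 bins lay within 10 points of 0, while its half-width ranged from 2.47 to 54.6 points with a median of 5.40. Between the treated groups, the lowest adjusted p over the 32 bins and regions was 0.858 for 10x minus 2x, 0.9996 for 10x minus 4x and 0.905 for 4x minus 2x.

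**Figure D2:**
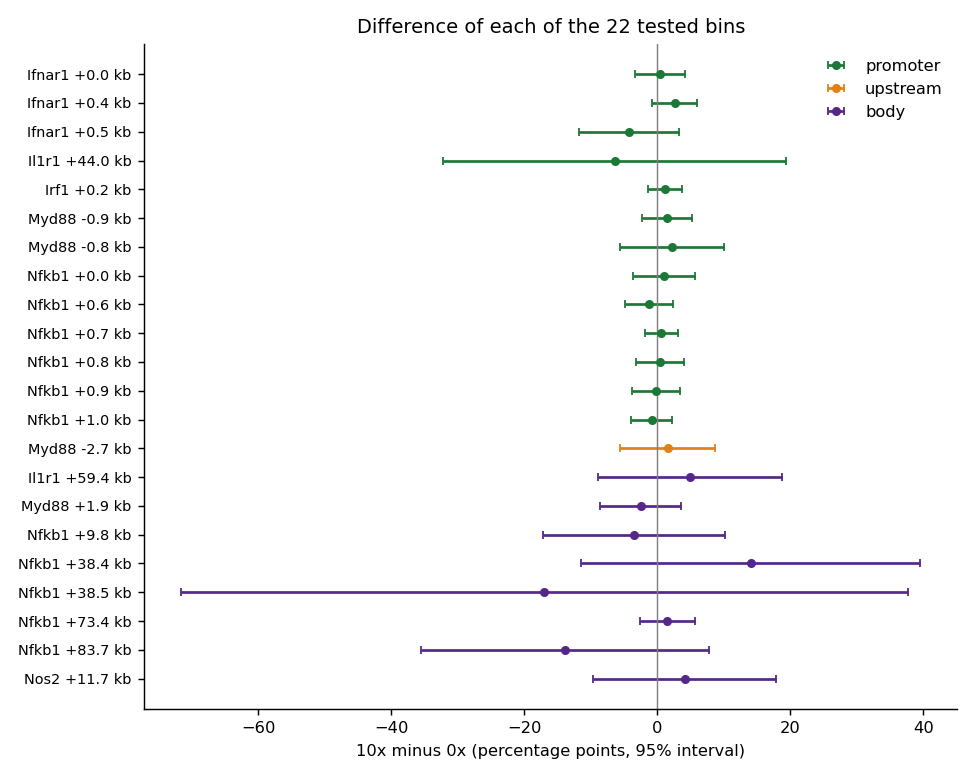
Difference in percent methylation of 10x from 0x (percentage points) for the 22 bins tested, with limma's 95% intervals. All intervals cross 0, and in 10x the widest is that of the Nfkb1 body bin at 135653400, with a half-width of 54.6 points.

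**Figure D3:**
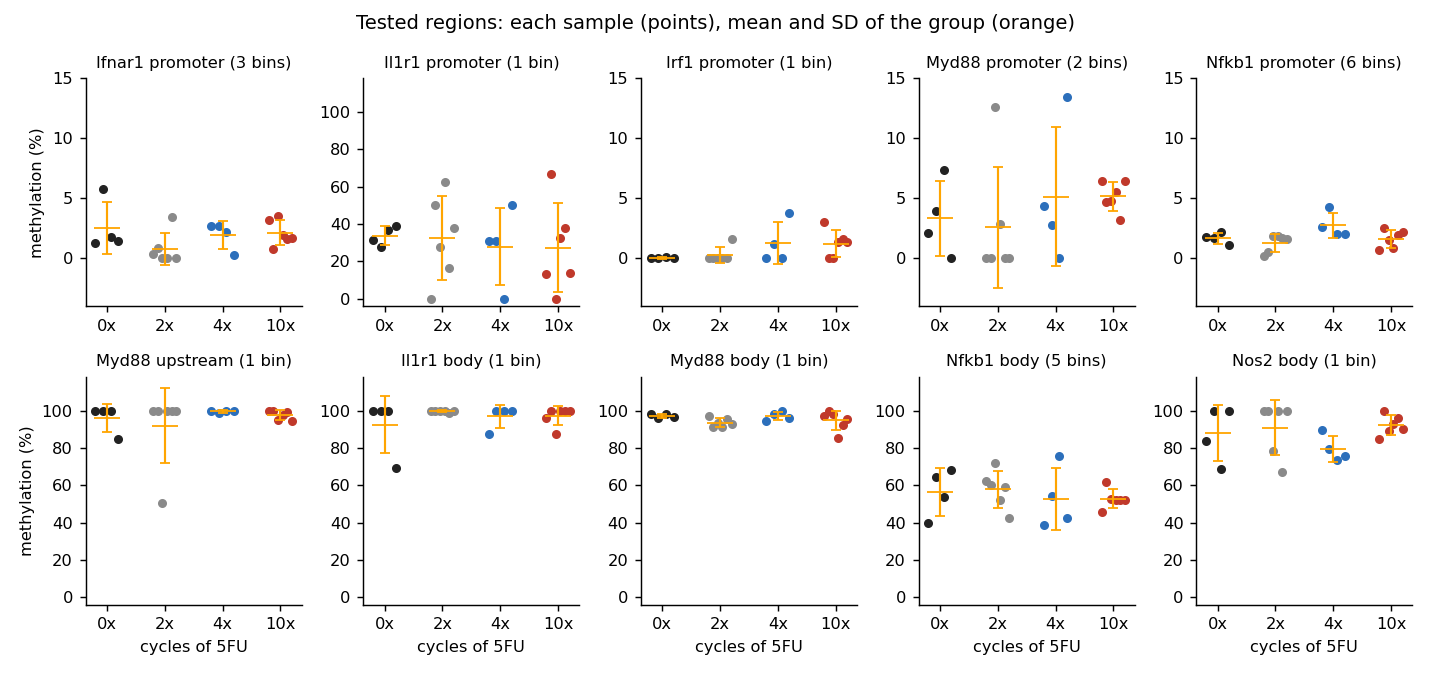
Percent methylation per sample, as the mean over the bins tested, of each promoter, flank and gene body that had 1, with group means and SD as bars. The 10x samples overlap the 0x samples in each of the regions plotted.

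Nos2, the inducible nitric oxide synthase, spans chr11:78920787-78960226 on the plus strand of mm10. Its 1 bin tested lies in an intron of the gene body at chr11:78932400-78932499 and holds 3 CpG. A promoter bin described further on is printed because its values set the spread between groups there. It is given on the plus strand of GRCm38.p6, the RefSeq assembly of mm10, with each CpG in capitals.
Nos2 promoter bin 78925600: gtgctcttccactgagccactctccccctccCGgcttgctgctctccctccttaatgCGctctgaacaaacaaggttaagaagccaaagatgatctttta

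The intron bin was highly methylated in most samples. It lay at 83.9%, 100%, 68.7% and 100% in the 0x samples. In 2x it ranged from 67.0% to 100% around a median of 100%. The 4x samples had 89.4%, 79.2%, 73.5% and 75.6%, and 10x ranged from 85.0% to 100% around 91.7%. All groups overlapped, and the 4x mean of 79.4% ± 7.04 (SD, n = 4) was the lowest of the 4 groups. The bin averaged 92.2% ± 5.31 in 10x (SD, n = 6) and 88.2% ± 15 in 0x (SD, n = 4). The difference of 10x from 0x was 4.09 points (SE 6.05, 95% interval -9.45 to 17.6, limma adjusted p = 0.865). The difference of 4x from 0x was -8.71 points (-26.1 to 8.69), and that of 2x was 2.74. Over all 22 gene body bins without repeated values, 16 of them constant in all samples, Nos2 averaged 93.0% (0x), 94.5% (2x), 91.5% (4x) and 92.6% (10x).

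Of the 7 promoter bins of Nos2, 6 held repeated values, and none was among the bins tested. The bin at 78925100 was at 0 in all 20 samples. The bins at 78925200 and 78925300, which hold 15 and 11 CpG, were low. In the bin at 78925200 the highest value was 3.92% (0x), 0.926% (2x), 2.02% (4x) and 3.90% (10x). In the bin at 78925300 it was 0.334% (0x), 21.7% (2x), 6.76% (4x) and 3.17% (10x). Thus the part of this promoter with most CpG sites was largely unmethylated in 0x, 4x and 10x, apart from a 4x sample at 6.76% in the bin at 78925300. In 2x, 5 of the 6 samples lay between 6.25% and 21.7% in that bin, 2 of them at the same value.

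The flanking Nos2 promoter bins, with few CpG, carried the spread between groups. The bin at chr11:78925600-78925699, in an intron and with 2 CpG, had 50%, 84.2%, 100% and 84.2% in the 0x samples. It was at 0 in all 2x and all 4x samples, and ranged from 0 to 100% around a median of 60.5% in 10x. The value 84.2 recurs in 0x and 60.5 in 10x, so at least 2 of the 4 and 2 of the 6 values were taken as filled. The bin at chr11:78924900-78924999, an intron bin with 3 CpG, had 67.9%, 67.9%, 0 and 100% in 0x, 10.8% in all 2x samples, 0 in all 4x samples and a range of 0 to 100% around 20% in 10x. The bins at 78925000 and 78925400 were at 0 in all 0x samples, with 0.834% in every 2x sample at the first and 9.73% in every 4x sample and up to 100% in 10x at the second. As a mean over the 6 bins with repeated values, the promoter lay at 23.4% ± 5.95 (0x), 3.93% ± 1.24 (2x), 2.35% ± 0.371 (4x) and 19.3% ± 8.38 (10x) (SD over samples, part of it over filled values). The bins with repeated values were left out of the tests. With repeated values set as missing, the bin at 78925600 was 75 points lower in 2x than in 0x (95% interval -101.5 to -48.5, limma adjusted p = 0.0121), in a fit that called 2.85% of all bins. For this bin, 0x kept only the values 50% and 100% there. The 2x values at 0 were kept, and how many of them had been measured is unknown, so the interval and p-value cannot establish a difference.

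**Figure D4:**
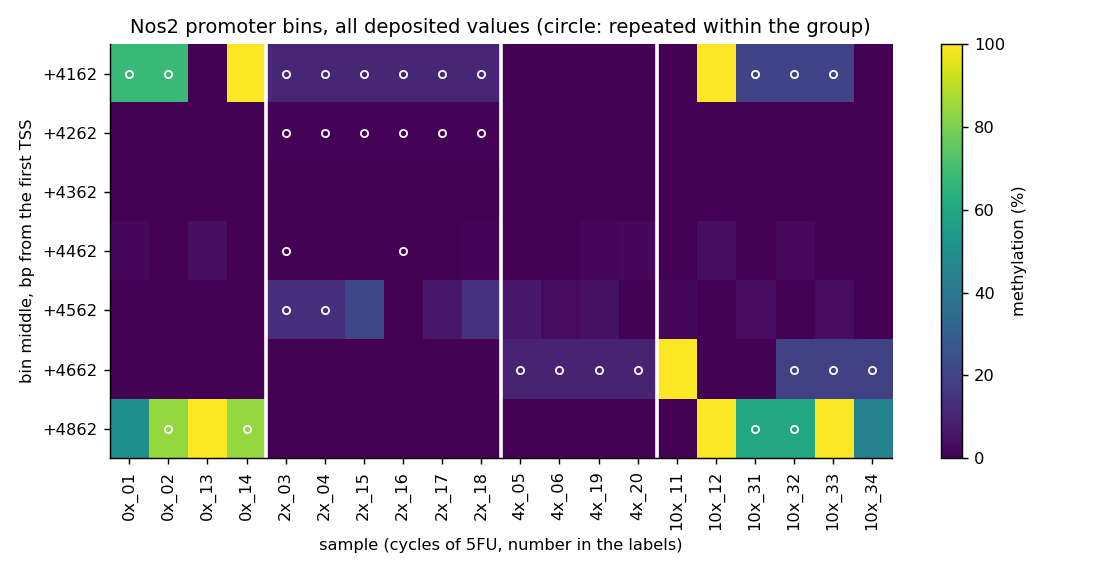
Percent methylation in each of the 20 samples for the 7 promoter bins of Nos2, by 0x, 2x, 4x and 10x, with values repeated within a group drawn apart from the others. The bin at 78925600 is at 0 in all 2x and 4x samples and between 50% and 100% in the 0x samples.

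In the body of Nos2, 24 bins held repeated values and averaged 72.5% (0x), 80.2% (2x), 75.9% (4x) and 73.3% (10x). In the fit with repeated values as missing, the gene body of Nos2 was 10.1 points higher in 2x than in 0x (limma adjusted p = 0.0225), where 7.37% of all 21543 gene bodies were called. The bins in that fit include the body bin at 78923000, which was itself 100 points higher in 2x than in 0x. How many values of that bin had been measured is unknown. A pair of neighbouring coding exon bins near the 3' end of the gene, chosen after their values were seen, had no value repeated in 4x. The bin at chr11:78956600-78956699 had 72.2%, 0, 36.4% and 37.0% in the 0x samples, ranged from 0 to 100% around 45.3% in 2x, had 100%, 68.8%, 73.2% and 66.0% in the 4x samples and ranged from 25.4% to 34% around 30.5% in 10x. The bin beside it at 78956500 ranged from 0 to 14.6% in 0x and 0 to 18.4% in 2x, had 6.25%, 12.7%, 13.2% and 31.9% in 4x and ranged from 0 to 3.62% in 10x. In both bins 10x and 0x overlapped. The 3 genes whose gene body means were most like the 1 bin of Nos2 over the 20 samples, by Pearson's r over 11679 genes, were Gm39909 (r 0.80, 1 bin), Zfp704 (r 0.79, 9 bins) and Gm36071 (r 0.78, 1 bin).

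**Figure D5:**
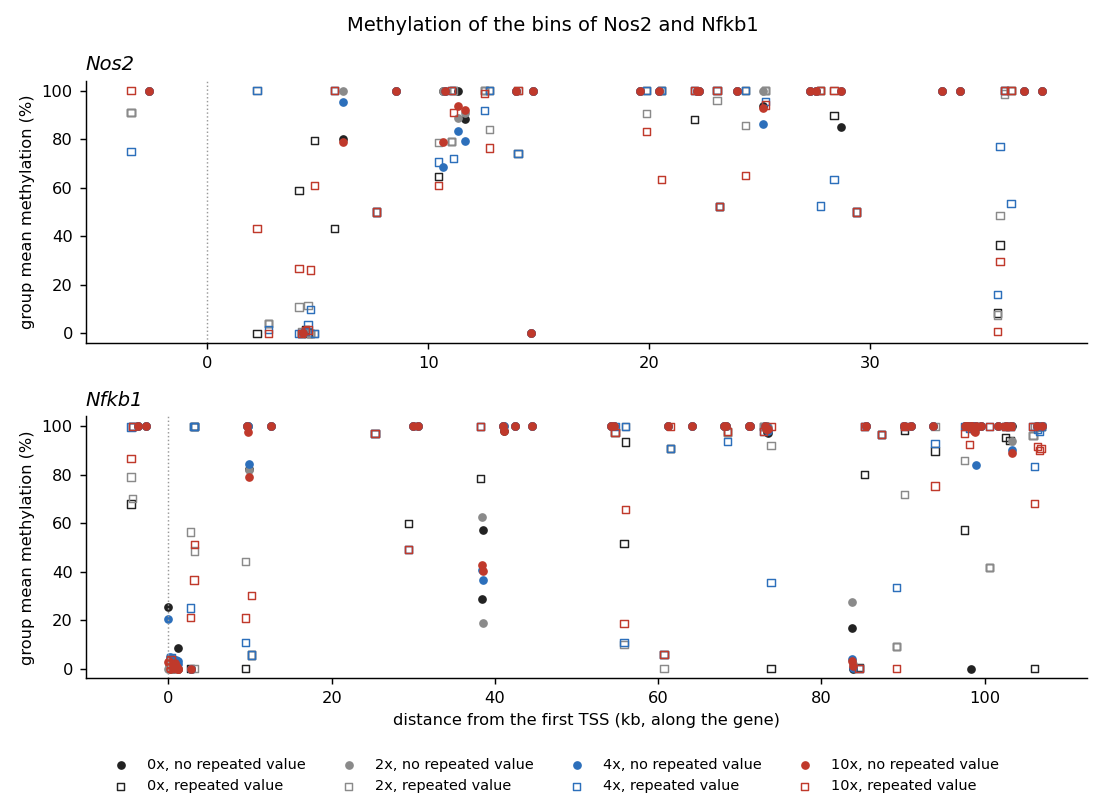
Mean percent methylation per group along Nos2 and Nfkb1, plotted against the distance of the bin middle from the first TSS (kb), with bins holding repeated values drawn apart. In Nfkb1 the bins around the TSS lie near 0 and most of the body near 100, and in Nos2 the low bins include those of the later start sites.

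Among the receptors, Il1r1, the signalling receptor for interleukin-1 at chr1:40222480-40316201 on the plus strand, had the most methylated promoter bins. Its 11 RefSeq start sites gave 17 promoter bins, and the 10 without repeated values averaged 63.4% (0x), 63.2% (2x), 63.7% (4x) and 63.2% (10x). A single one could be tested. It lies in an intron, 74 bp before a later TSS, and is printed because it was at an intermediate level in all groups, with its 2 CpG in capitals on the plus strand.
Il1r1 promoter bin 40266400: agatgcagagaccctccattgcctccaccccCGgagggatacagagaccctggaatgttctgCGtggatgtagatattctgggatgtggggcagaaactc

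The bin at chr1:40266400-40266499 had 31.6%, 27.9%, 37.0% and 38.7% in the 0x samples, which were close together. In 2x it ranged from 0 to 62.5% around 32.8%, the 4x samples had 30.6%, 31%, 0 and 50%, and 10x ranged from 0 to 66.9% around 23.1%. The treated groups thus spread to both sides of the 0x samples. The 10x mean of 27.4% ± 23.8 and the 0x mean of 33.8% ± 4.94 differed by -6.43 points (SE 11.4, 95% interval -32.0 to 19.2, adjusted p = 0.929 by limma). The gene body bin at chr1:40281800-40281899 was at 87.5% or above in all samples but 1, a 0x sample at 69.5%, and the difference of 10x from 0x was 4.86 points (-8.73 to 18.5, limma adjusted p = 0.838). A promoter bin with repeated values and 1 CpG, at 40221900, was at 100% in all 0x samples and at 0 in all 2x samples, while 4x ranged from 0 to 100% and 10x from 30.2% to 100%.

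Ifnar1, a chain of the type I interferon receptor at chr16:91485032-91510523 on the plus strand, had low methylation in the promoter bins tested. The mean over its 3 promoter bins tested was 1.24%, 5.79%, 1.74% and 1.42% in the 0x samples. The 2x samples ranged from 0 to 3.42% around 0.161%, the 4x samples had 2.72%, 2.68%, 2.16% and 0.269%, and 10x ranged from 0.734% to 3.52% around 1.82%. All groups overlapped. The difference of 10x from 0x was -0.437 points (SE 1.09, 95% interval -2.89 to 2.01, limma adjusted p = 0.949). Within the promoter, the bin with the largest difference, at 91485500, averaged 0.955% ± 2.28 in 10x and 5.25% ± 8.21 in 0x, and a single 0x sample at 17.3% held most of the 0x mean. Its 15 gene body bins without repeated values averaged 99% (0x), 100% (2x), 99.9% (4x) and 98.8% (10x).

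The other 3 receptors had no bin among those tested, and their values are a description. Tlr2, which pairs with Tlr1 or Tlr6 to bind bacterial lipoproteins, lies at chr3:83836272-83841824 on the minus strand. The mean of its 5 promoter bins without repeated values ranged from 0 to 5.02% in 0x, was 0 in all 2x samples, reached 3.97% in 4x and ranged from 0 to 2.78% in 10x, and its 7 gene body bins of that kind lay at 96.4% or above in every sample. Tlr4, the receptor for lipopolysaccharide at chr4:66827551-66846581 on the plus strand, had gene body bins only. The 3 of them without repeated values averaged 98.2% ± 2.92 in 10x and 89.1% ± 15.7 in 0x, where 1 sample lay at 66.7%. Ifngr1, the ligand-binding chain of the interferon gamma receptor at chr10:19591949-19610229 on the plus strand, had 3 promoter bins without repeated values with a highest sample mean of 3.26% (0x), 0 (2x), 1.59% (4x) and 2.64% (10x). Its 10 gene body bins of that kind lay at 97.5% or above in every sample. Thus in the bins of Tlr2 and Ifngr1 without repeated values, promoters were low and gene bodies high in all 4 groups. The 2 promoter bins of Tlr2 with repeated values averaged 0 (0x), 12.2% (2x), 0 (4x) and 0.297% (10x). The 4 such bins of Ifngr1 averaged 22.3%, 12.2%, 24.6% and 17.6% in the same order, and these means include filled values.

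Myd88, the adaptor that Toll-like receptors and the interleukin-1 receptor share, lies at chr9:119335934-119340018 on the minus strand. The mean of its 2 promoter bins tested was 2.07%, 3.90%, 7.38% and 0 in the 0x samples. In 2x it ranged from 0 to 12.6% around 0, the 4x samples had 4.35%, 2.79%, 0 and 13.4%, and 10x ranged from 3.20% to 6.42% around 5.15%. The 10x samples were the closest together, and they lay inside the range of 0x. The difference of 10x from 0x was 1.83 points (SE 1.40, 95% interval -1.31 to 4.98, limma adjusted p = 0.862), and in its bin with the largest difference, at 119340800, it was 2.21 points (-5.59 to 10.0). The upstream flank bin at chr9:119342700-119342799 was at 94.3% or above in all samples but a 0x sample at 84.8% and a 2x sample at 50.8%, and 10x differed from 0x by 1.57 points (-5.59 to 8.73, limma adjusted p = 0.940). In the coding exon bin at chr9:119338100-119338199, 10x ranged from 85.4% to 100% around 96.2% and the 0x samples had 98.3%, 95.8%, 98.1% and 96.8%, a difference of -2.52 points (-8.77 to 3.73, limma adjusted p = 0.815). The 4 promoter bins of Myd88 with repeated values averaged 0.883% (0x), 9.18% (2x), 0.918% (4x) and 0.962% (10x), filled values included.

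Nfkb1, the precursor of the p50 subunit of NF-kB, lies at chr3:135584655-135691969 on the minus strand and gave 96 bins. Its promoter was unmethylated in the 6 bins tested, which hold between 6 and 21 CpG each. Their mean was 1.74%, 1.67%, 2.20% and 1.09% in the 0x samples. The range in 2x was 0.148% to 1.89% around 1.61%, the 4x samples had 2.63%, 4.25%, 2.04% and 2.05%, and 10x ranged from 0.652% to 2.53% around 1.74%. Both 2x and 4x overlapped 0x and 10x. The difference of 10x from 0x was -0.0706 points (SE 0.686, 95% interval -1.61 to 1.47, limma adjusted p = 0.986). The promoter bin with the largest difference, at 135691300, differed by -1.28 points (-4.85 to 2.28).

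Beside the tested promoter bins, Nfkb1 had 5 in which a group sat at 0 throughout. All 5 were at 0 in every 2x sample, where it is unknown how many samples had been measured, and they averaged 7.58% in 0x. In the bin at chr3:135692000-135692099, 80 bp before the first TSS, the 0x samples had 1.41%, 0, 52.4% and 47.7%. All 2x samples were at 0, the 4x samples had 19.4%, 0, 0 and 62.5%, and in 10x 5 of the 6 samples were at 0 and the other at 16.7%. Over the 11 promoter bins without repeated values, the sample means were 2.10%, 3.94%, 5.96% and 5.43% in 0x, reached from 0.0806% to 1.03% in 2x, were 6.89%, 2.61%, 1.31% and 6.80% in 4x and reached from 0.355% to 2.69% in 10x. All 2x samples thus lay below all 0x samples, while 4x and 10x overlapped them. In the fit over all bins without repeated values, which includes bins with a group at 0 throughout, the promoter differed by -3.67 points in 2x from 0x (limma adjusted p = 0.0428). It was 1 of 7 promoters of the 9 genes in that fit, which called 2.58% of all 19217 promoters in 2x. No promoter of the 9 genes passed in 4x or 10x there.

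The body of Nfkb1 held the tested bin with the widest spread. As a mean over its 5 bins tested, the 0x samples had 39.6%, 64.3%, 53.7% and 68.4%. In 2x the range was 42.6% to 71.9% around 59.4%, the 4x samples had 38.9%, 54.2%, 75.6% and 42.4%, and in 10x the range was 45.9% to 61.8% around 52.1%. The 10x mean of 52.7% ± 5.09 and the 0x mean of 56.5% ± 12.8 differed by -3.78 points (SE 5.33, 95% interval -15.7 to 8.13, limma adjusted p = 0.860). A pair of neighbouring intron bins showed opposite signs. The bin at 135653400 averaged 40.2% ± 32.8 in 10x and 57.1% ± 50.8 in 0x, with a difference of -17.0 points (-71.6 to 37.6, limma adjusted p = 0.887), and the bin at 135653500 averaged 42.7% ± 19.6 in 10x and 28.6% ± 17.5 in 0x, with a difference of 14 points. Single samples of 0x, 2x and 4x lay at both 0 and 100% in the first of these.

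A coding exon bin and an intron bin of Nfkb1 are printed on the plus strand of GRCm38.p6, CpG in capitals, because the first has the most CpG among its gene body bins tested and the second was the only bin without repeats in which 2x, 4x and 10x all lay outside the 0x values. Both were chosen after their values were seen.
Nfkb1 coding exon bin 135608200: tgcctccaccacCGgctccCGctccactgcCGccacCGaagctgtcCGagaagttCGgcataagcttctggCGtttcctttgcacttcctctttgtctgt
Nfkb1 intron bin 135593600: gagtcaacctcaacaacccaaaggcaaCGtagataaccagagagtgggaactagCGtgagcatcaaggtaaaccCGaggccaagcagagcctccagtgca

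The exon bin at chr3:135608200-135608299, with 7 CpG, had 0, 0, 15.4% and 52.2% in the 0x samples. Values in 2x ranged from 0 to 75.0% around 14.1%, the 4x samples had 0, 15.2%, 0 and 0, and 10x ranged from 0 to 16.7% around 0. It was thus at 0 in some samples of every group. The difference of 10x from 0x was -13.9 points (-35.6 to 7.73, limma adjusted p = 0.859). The intron bin at chr3:135593600-135593699, with 3 CpG, was at 100% in all 2x, 4x and 10x samples and at 0 in all 0x samples. Since every group held 1 value at 0 or 100, it is unknown how many of the 20 values were measured, and the bin was not among those tested.

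Irf1, a transcription factor that interferons induce, lies at chr11:53770014-53778374 on the plus strand. The only bin tested was in the promoter, at chr11:53770200-53770299 with 15 CpG. It had 0, 0, 0.141% and 0 in the 0x samples. In 2x it ranged from 0 to 1.59% around 0, the 4x samples had 0, 1.23%, 0 and 3.74%, and 10x ranged from 0 to 3.05% around 1.32%. The 10x mean of 1.2% ± 1.1 and the 0x mean of 0.0353% ± 0.0705 differed by 1.18 points (SE 0.779, 95% interval -0.566 to 2.94, limma adjusted p = 0.861). All groups overlapped at 0.

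The sequence of the 250 bases before the first TSS of Irf1, chr11:53769764-53770013 on the plus strand, is taken from RefSeq (GRCm38.p6) and printed because 3 bins lie on it. The capitals mark a GAS motif (TTCNNNGAA), 90 bases before the TSS, and a match to the NF-kB motif 13 bases before it. Of the 9 genes, 6 (all but Nos2, Nfkb1 and Tlr4) matched the promoter table. Both strands were searched, and the matches do not overlap. The letters of the GAS motif occur in 8.30% and those of the NF-kB motif in 8.46% of 32851 promoter windows running from 250 bases before to 50 bases after a TSS. The stretch holds 25 CpG.
Irf1 promoter: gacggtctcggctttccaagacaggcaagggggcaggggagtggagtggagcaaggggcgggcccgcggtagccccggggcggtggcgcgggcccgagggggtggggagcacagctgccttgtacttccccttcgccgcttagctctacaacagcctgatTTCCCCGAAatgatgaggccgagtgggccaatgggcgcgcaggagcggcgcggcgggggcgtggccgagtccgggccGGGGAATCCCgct

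The bin at 53769900, which holds the GAS match, was at 0 in all samples but a pair of 4x samples at 0.317% and 0.137%. The bin at 53770000, which holds the NF-kB match and reaches past the TSS, had repeated values and was as high as 12.5% in 0x but 10.0% in 2x, and no higher than 0.350% in 4x or 0.369% in 10x. The bin before them, at 53769800, had repeated values too, with 23.3%, 23.3%, 21.5% and 25% in the 0x samples, 0 in all 2x and 4x samples and a range of 0 to 9.78% around 5.37% in 10x. No sample lay above 12.5% in either bin that holds a match. In the gene body of Irf1, the 6 bins without repeated values were constant in all samples, and the bin at 53772900 with repeated values was at 0 in all 0x samples, 100% in all 2x samples and in between in 4x and 10x.

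Among bins without repeated values, those of Nfkb1 were the only ones in which a treated group lay wholly outside 0x. The count was 1 (2x), 2 (4x) and 1 (10x), all above 0x, of 205 bins, where 0.853%, 0.780% and 0.562% of all bins without repeated values did so. The 1 bin in 2x and in 10x was the intron bin at 135593600, and the further bin in 4x was the promoter bin at 135691200, with 0.532% to 4.12% in 4x and 0 to 0.286% in 0x. Among the 130 bins with repeated values, 28.5% (2x), 22.3% (4x) and 22.3% (10x) lay wholly outside 0x, near the shares of 28.7%, 25% and 21.4% among all bins with repeated values. In 2x, 20 lay above and 17 below 0x, and in 34 of these both groups held 1 value each. In 4x, 18 lay above and 11 below, with 23 of that kind, and in 10x, 19 lay above and 10 below, with 27 of that kind.

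The wider pathway was followed in 70 other genes of Toll-like receptor, interleukin-1, interferon and NF-kB signalling and the nitric oxide synthases. None of its 44 promoters and 36 gene bodies tested was called in any comparison. At an unadjusted p under 0.05, 2 promoters and 3 gene bodies were higher and 2 and 3 lower in 10x than in 0x. In 2x it was 2 promoters and 2 gene bodies higher and 1 of each lower, and in 4x 2 promoters and 3 gene bodies higher and 0 and 1 lower. As shares of the list, these were 6.82% (2x), 4.55% (4x) and 9.09% (10x) of promoters and 8.33%, 11.1% and 16.7% of gene bodies, beside 3.23%, 3.76% and 6.07% of all promoters and 4.27%, 4.27% and 8.05% of all gene bodies. The lowest adjusted p in 10x was 0.446 for promoters and 0.115 for gene bodies. The promoter at 0.446 was that of Nos3, the endothelial nitric oxide synthase, whose 1 bin averaged 77.3% ± 16.9 in 10x and 27.3% ± 21.1 in 0x. The median difference of the promoters from 0x was 0.204 (2x), 0.189 (4x) and -0.0658 (10x) points, beside 0.226, -0.0844 and -0.00107 over all promoters, and that of the gene bodies was -0.499, 1.12 and 1.15, beside 0.135, 0.730 and 1.11.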

How the data were processed

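Per the methods, reads were trimmed in Trim Galore 0.4.3 (base quality 25), mapped by Bismark 0.23.1 to mm10 and summarised in methylKit 1.22.0 from positions covered by 10 reads or more. The deposited value is the percent methylation that the authors averaged per 100 bp bin. By their account, the level of the group was put in where a sample had none. Coverage is not given in the sources used here, so depth and counting error are unknown, and the planned test on read numbers gave way to limma on the percent. Leaving out bins at 0 or 100 throughout a group removes the most extreme bins from the tests. Bins were placed on RefSeq genes of GRCm38.p6. For a promoter or gene body, the percent was averaged over its bins tested in each sample. With limma 3.58.1 in R 4.3.3, treated and 0x samples were fitted for 1 treated group at a time, and the treated groups with each other and the slope over cycles in fits of all 20 samples, with Benjamini-Hochberg adjustment across all bins, promoters or gene bodies. For each gene and region, the bin with the largest difference of 10x from 0x among those tested was named, as were all Nos2 promoter bins and the 3 genes most like Nos2. Other single bins were chosen after their values were seen. The members, the pathway list, the blood and tissue genes and the tests were chosen with earlier results of these data known. Scripts were tested on simulated data. Some of the blood and tissue genes and the sequence of a bin are not reported here. Alternatives covered the set of bins, the treatment of repeated values, the promoter width, the thresholds and the scale. They also covered the samples fitted, a term for sample numbers above 12 in the labels, and leaving out each sample. Python 3.11.15 (numpy 2.4.6, pandas 2.3.3), the R package data.table in version 1.17.8 and, for plots, matplotlib 3.10.9 did the rest.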

Additional observations from a re-analysis of the deposited data

Results flagged for a closer look

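Single samples that stood far from the rest of their group were found in 18 of 56 groups over the 14 regions and bins examined: 5 of the 0x groups, 8 of 2x, 3 of 4x and 2 of 10x. In each, the gap of the highest or lowest sample to the nearest other exceeded the 95% critical value of Dixon's ratio. Chance alone gives about 1 in 20 groups, and many of these groups hold several samples at exactly 0 or 100, where any other value stands apart.

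In the gene body of Il1r1, the samples that stood apart were 0x sample 14 at 69.5%, 2x sample 17 at 98.6%, 4x sample 5 at 87.7% and 10x sample 31 at 87.5%. In the upstream flank of Myd88 they were 0x sample 14 at 84.8%, 2x sample 15 at 50.8% and 4x sample 6 at 98.7%, each below the rest of its group. In the Myd88 promoter, 2x sample 15 lay at 12.6%, and in its bin at 119340800 at 24.7%, against 0 in the other 2x samples of that bin. The same 2x sample lay at 100% in the Nfkb1 body bin at 135653400, against at most 11.8% in the others.

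In the Ifnar1 promoter, 0x sample 2 lay at 5.79% and 2x sample 17 at 3.42%. In its bin at 91485500, 2x sample 4 lay at 2.50%, 4x sample 6 at 6.59% and 10x sample 31 at 5.60%. In the Irf1 promoter, 0x sample 13 lay at 0.141% and 2x sample 18 at 1.59%, with 0 in the rest of each group. In the Nfkb1 promoter bin at 135691300, 0x sample 2 lay at 7.46%. What set these samples apart was not tested.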

How the results depend on the processing

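Results depended on which bins were admitted. No bin or region of the 9 genes was called under leaving out any sample or under the other alternatives, except in 3 wider sets of bins. With all bins without repeated values, 1 bin was called in each of 2x (of 56), 4x (of 69) and 10x (of 72). It was the Nfkb1 intron bin at 135593600, 100 points higher. In 2x, 1 of 7 promoters (Nfkb1) was called too. Over all genes, 2.37%, 1.06% and 1.09% of bins and 2.58% of promoters in 2x were called. With all deposited bins that vary, filled values included, the calls were 33 of 146, 14 of 163 and 21 of 177 bins in 2x, 4x and 10x. Further calls were 17 of 202 slopes, 5, 2 and 2 of 8 promoters, 2 of 4 upstream flanks in 10x, and 3, 2 and 1 of 9 gene bodies. In that set 20.3%, 12.2% and 13.7% of all bins, 9.23% of all slopes, 23.4%, 14.3% and 16.1% of all promoters, 26.4% of all flanks in 10x and 35.5%, 20.8% and 27.5% of all gene bodies were called. With repeated values as missing, the calls were 8 of 109, 4 of 126 and 1 of 134 bins in 2x, 4x and 10x. In 2x they also were 1 of 8 promoters (Il1r1, -22.2 points) and 3 of 9 gene bodies (Irf1 34.3, Nfkb1 6.57 and Nos2 10.1 points higher). Over all genes, 2.85%, 1.45% and 1.25% of bins and, in 2x, 3.40% of promoters and 7.37% of gene bodies were called. Over all genes the same sets called 2689, 80091 and 5497 bins in 10x, against 11 of 84131, and leaving out a sample gave 1 to 98. Why the sets differ was not tested.

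Of 272 recomputed differences of 10x from 0x, 245 kept their direction and side of the threshold, 25 changed sign and 2 passed it with the same sign. Of the sign changes 2 passed it too, so that 4 passed in all. With all bins without repeated values, all that vary and repeats as missing, in that order, the Ifnar1 promoter turned to 2.08, 4.66 and 4.16 points and the Nfkb1 body to 4.07, 4.77 and 2.33. In the first set the Il1r1 body turned to -0.449, the Nos2 body to -1.69 and the Myd88 flank to -0.0474. With all that vary, the Il1r1 body turned to -3.33 and the Irf1 promoter to -2.28. With repeats as missing, the Irf1 promoter turned to -1.27, the Myd88 promoter to -0.392 and the Myd88 flank to -0.964. As a log2 ratio, the Myd88 flank was -0.199 and the Nos2 body -0.361. The 4 that passed, all in the set of all that vary, were the Nfkb1 promoter (-2.51 points, limma adjusted p = 0.0266) and the Myd88 flank (3.43, 0.00627) with the same sign, and the Ifnar1 promoter (4.66, 0.0147) and the Nfkb1 body (4.77, 0.0427) with the sign turned.

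Leaving out 1 sample turned the sign in the Ifnar1 promoter (-0.872 to 0.643, without 0x sample 2), the Nfkb1 promoter (-0.266 to 0.120, without 0x sample 13, 10x sample 11 or 10x sample 32), its bin at 135691300 (-1.87 to 0.280, without 0x sample 2), the Myd88 flank (-2.21 to 2.85), the Il1r1 body (-2.76 to 7.41) and the Nfkb1 body (-9.41 to 0.177), these 3 without 0x sample 14, and the Nos2 body (-2.40 to 8.04, without 0x sample 13). None of these was called. No paired analysis was possible because the groups share no replicate numbers. Every group holds sample numbers up to 12 and above 12. With a term for this split in the fit, no bin or region of these genes was called. What the split stands for is not given.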
